A study of Gallus gallus with 16 samples.

Results

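Pituitary glands of chicken embryos were compared between embryonic day 17 (E17) and embryonic day 12 (E12) on 8 of the 16 two-colour cDNA microarrays of a time course that also holds E10 and E14. Each age had 4 replicate samples. Every E17 sample was the glands of 2 embryos and every E12 sample the glands of 8, and the samples of E10 and E14 were pools of 16 and 4. No strain, treatment or genetic change is named in the labels, nor any separation of the cell types of the glands. Amplified sample RNA carried Cy3 and was hybridised against 1 Cy5 reference pool made from all 16 samples. Probes were compared where at least 3 of the 4 arrays had a value at both ages, which kept 7155 of 7200 table rows. Of the 45 rows left out, 39 were among the first 45 spots, which were blank on some arrays as described below.

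The anterior pituitary holds several kinds of hormone-making cell. Thyrotrophs make thyrotropin, which drives the thyroid, somatotrophs make growth hormone, which acts on growth and metabolism, and lactotrophs make prolactin, which in birds acts on incubation and broodiness. The study's title ties the time course to the differentiation of these 3 kinds. In the chick embryo thyrotrophs appear first, somatotrophs become abundant in the later part of incubation, under the influence of glucocorticoids, and lactotrophs come last, towards hatching. Where cell types are not separated, fewer cells of a type and less RNA per cell cannot be told apart.

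Values are the authors' deposited log ratios, already centred and scaled for each array and read here as log2 of sample over reference pool, an assumption on which every direction below rests. Because of the centring, a value of 0 stands for the average ratio on that array. Above or below the pool is meant below relative to that level. A difference is the E17 mean minus the E12 mean on that scaled scale, and because of the scaling no fold changes are given. The annotation used here pairs 54 rows with 1 gene, STUB1, and leaves 7146 rows unnamed here. Marker genes of the pituitary or of other tissues could therefore not be looked up, the labelled tissue could not be checked against them, and probes are named by row number.

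The 8 arrays held 7126 to 7194 values each. Across probes, E17 arrays correlated with one another at r = 0.40 to 0.57 and E12 arrays at 0.20 to 0.43, while an E17 and an E12 array correlated at -0.26 to 0.18. The lowest correlation among all 16 arrays was -0.37. The median SD over replicates was 0.136 at E17 and 0.165 at E12, against 0.186 at E14 and 0.114 at E10. On E12 replicates 3 and 4, as on 2 of the E14 arrays, between 39 and 45 of the first 45 spots had no value, whereas any other array lacked at most 1. All E17 arrays were of the other kind, so a comparison within it uses only E12 replicates 1 and 2. The number of arrays limits the precision, and the median standard error of a difference was 0.120.

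Between E12 and E17, 564 of 7155 probes changed (7.88%, limma, Benjamini-Hochberg adjusted p under 0.05). Of these, 292 were higher (4.08% of the probes tested) and 272 were lower (3.8%) at E17. Read as sample over pool, the rises were larger than the falls, and with the sign turned these counts and sizes would trade places. The median size was 0.66 among probes that rose and 0.44 among probes that fell. On the scaled values, 66 rises (0.922% of the probes tested) but only 4 falls (0.0559%) reached a size of 1, which is not a fold change. Of the rises, 26 reached 2, and the largest was 3.83, whereas the largest fall was 1.44. Over all probes tested the median difference was -0.02, and 44.9% were higher at E17. With E12 replicates 3 and 4 and the 2 E14 arrays of the same kind left out, 300 probes passed, 211 higher and 89 lower, and 282 of them were among the 564. With the 2 kinds of array as a term in the fit, 454 passed, 261 higher and 193 lower.

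Replicates of the changed probes were mostly well separated. The probes were chosen by these same values, which favours separation, so the counts are a description only. All E17 values lay above all E12 values in 278 of the 292 probes that rose, and below them in 251 of the 272 that fell. Over all probes tested the values were that far apart in 13.8% (5.63% with E17 higher and 8.12% with E17 lower). In the remaining 14 rises and 21 falls at least 1 array overlapped with the other age.

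**Figure D1:**
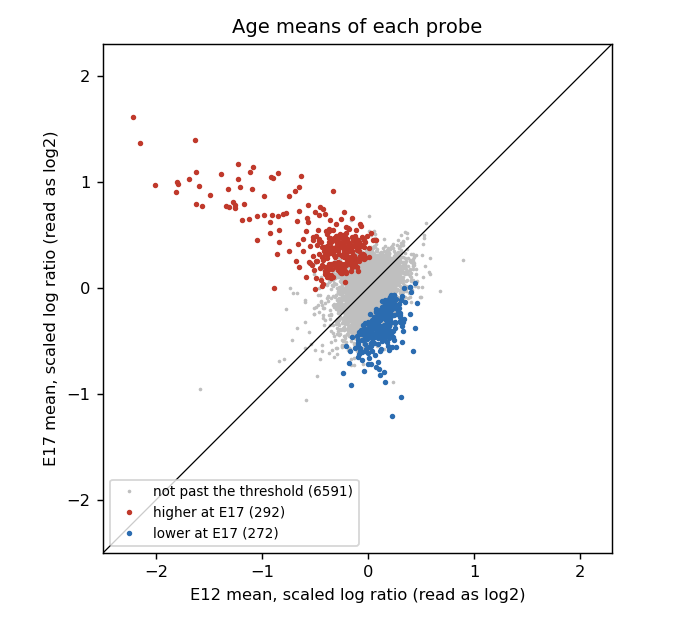
Mean value of each of 7155 probes at E17 (vertical axis) against its mean at E12 (horizontal axis), both as scaled ratios read as log2, with the line of equal values. The 292 probes higher at E17 reach far to the left of the cloud, with E12 means down to -2.22, while the 272 lower at E17 lie close below it.

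The largest rise was that of probe 1621. Its values were 1.87, 1.66, 1.75 and 1.17 on E17 replicates 1 to 4, against -2.07, -2.30, -2.25 and -2.26 on E12 replicates 1 to 4. All E17 arrays were far above the pool and all E12 arrays far below it, with replicate 4 the lowest at E17. The difference was 3.83 (SE 0.20, limma adjusted p = 8.43e-10), between 1.61 ± 0.31 at E17 and -2.22 ± 0.10 at E12 (SD, n = 4).

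Probe 539 had the second largest rise and much the same pattern. Its values were 1.44, 1.47, 1.51 and 1.04 at E17, against -2.22, -2.36, -2.06 and -1.96 at E12, again with replicate 4 lowest at E17. The difference was 3.52 (SE 0.17, limma adjusted p = 2.6e-10). At E10 probe 1621 stood at -1.72 ± 0.08 and probe 539 at -1.70 ± 0.23 (SD, n = 4). At E14 both were still far below the pool, probe 1621 at -1.86 ± 0.57 and probe 539 at -1.74 ± 0.40. The E12 mean was the lowest of the 4 ages for both.

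Among falls, probe 4970 changed most. It had -1.14, -1.31, -1.08 and -1.33 at E17, against -0.28, 0.40, 0.27 and 0.50 at E12. E12 replicate 1 was the one array of that age below the pool, but still above every E17 array. The difference was -1.44 (SE 0.15, limma adjusted p = 5.89e-06).

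Probe 171 had very even values at E17, -1.07, -1.003, -1.04 and -1.01, against 0.06, 0.31, 0.54 and 0.32 at E12. It fell by 1.34 (SE 0.10, limma adjusted p = 1.22e-07). At E14 it was below the pool on the 3 arrays with a value, at -0.21, -0.20 and -0.14 on replicates 1 to 3. Probe 4970 had -0.17, 0.36, -0.21 and 0.17 on E14 replicates 1 to 4, a mean of 0.04 ± 0.27. Both probes were highest at E10, with means of 0.62 for probe 4970 and 0.60 for probe 171.

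The other falls of at least 1 were probes 5590 and 1559, which are named because the count is small, after their values were seen. Probe 5590 had -0.71, -0.59, -0.41 and -0.69 at E17, against 0.33, 0.40, 0.48 and 0.49 at E12, and fell by 1.03 (SE 0.09, limma adjusted p = 5.04e-07). It was highest at E12, since its E10 mean was 0.10 ± 0.03 (SD, n = 4). Probe 1559 had -0.91, -1.02, -0.77 and -0.84 at E17, against 0.14, -0.23, 0.57 and 0.16 at E12, and fell by 1.04 (SE 0.27, limma adjusted p = 0.0214). Its E14 replicates spread from -0.91 to 0.96, the whole way from the E17 level to above every E12 value. The call for probe 1559 was lost in some fits, with adjusted p values up to 0.144.

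**Figure D2:**
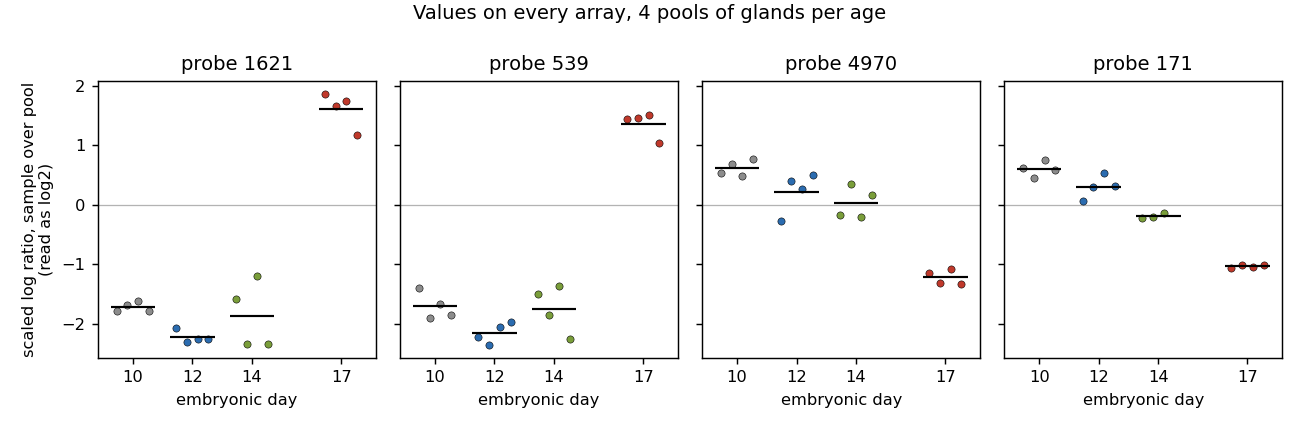
Values of probes 1621, 539, 4970 and 171 on every array (points, 4 pools per age) with the mean of each age (lines), as scaled ratios read as log2 against embryonic day. Probes 1621 and 539 stay below -1 through E14 and stand above 1 at E17, and probe 171 has E17 values between -1.07 and -1.003.

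The E14 arrays had no part in the differences and show where the changed probes stood between both ages. Their spread did enter the fit, so it helped to decide which probes passed. With the E12 and E17 arrays alone, 501 probes passed, 458 of them among the 564. Among the 292 rises, the E14 mean lay between the E12 and E17 means in 271 (92.8%), and among the 272 falls in 248 (91.2%). Over all probes tested the share was 43.8%, but most of these differed little between the ages. The changed probes were chosen for a wide gap between the E12 and E17 means. That favours an E14 mean between them, so the shares are a description only. On a scale with 0 at the E12 mean and 1 at the E17 mean, the median E14 position was 0.54 for rises (quartiles 0.38 and 0.67) and 0.42 for falls (quartiles 0.25 and 0.57). The E14 position was above 0.5 in 172 rises (58.9%) and 101 falls (37.1%). A constant daily change would put E14 at 0.4 rather than 0.5, because the steps last 2 and 3 days. Averaged over the 292 rises, E10 arrays stood at -0.60 ± 0.05, E12 arrays at -0.44 ± 0.07, E14 arrays at -0.01 ± 0.14 and E17 arrays at 0.44 ± 0.04 (SD between the 4 arrays of an age). The 272 falls averaged 0.20 ± 0.02, 0.12 ± 0.07, -0.08 ± 0.08 and -0.36 ± 0.03 at the same ages. E10, likewise used only for its spread, lay on the far side of E12 from E17 in 190 rises (65.1%) and 197 falls (72.4%), against 49.4% of all probes tested.

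The 30 probes that rose most, by 1.93 to 3.83, formed 2 sets by their E14 level, with none of the 30 in between. In 11 of them E14 had moved by at most 0.17 of the way, and in the other 19 it had moved by 0.44 to 0.74. The empty range between 0.17 and 0.44 did not extend to all 292 rises. Their lower quartile, 0.38, lay inside it, and so did probe 106, at 0.30 with a rise of 1.35. The 2 sets therefore describe the 30 largest rises and not the rises as a whole. The first 11, which include probes 1621 and 539, averaged 1.30, 1.28, 1.28 and 0.81 on E17 replicates 1 to 4, against -1.30, -1.38, -1.47 and -1.19 on E12 replicates 1 to 4. At E14 their averages were -0.95, -1.18, -1.003 and -1.38, a range that overlaps that of E12. E17 replicate 4 was the lowest E17 array in 11 of the 11. E10 was higher than E12 in all 11 as well, with averages of -1.19 to -0.97. However, the E12 level helped to choose these probes, while E10 entered only through its spread.

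The other 19 averaged 0.89, 1.00, 0.88 and 0.82 on E17 replicates 1 to 4, against -1.42, -1.53, -1.67 and -1.34 on E12 replicates 1 to 4. Here the E14 arrays disagreed: replicates 2, 3 and 4 averaged 0.47, 0.33 and 0.16, while replicate 1 averaged -0.82 and was the lowest E14 array in 18 of the 19 probes. E10 was above E12 in 10 of the 19. The E17 replicates were close together in this set, and E17 replicate 4 was the lowest in 11 of 19.

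The 30 probes that fell most, by 0.66 to 1.44, showed no such division, with E14 positions spread from -0.02 to 0.94 around a median of 0.37. They averaged -0.72, -0.58, -0.60 and -0.71 on E17 replicates 1 to 4, against -0.03, 0.20, 0.24 and 0.27 on E12 replicates 1 to 4. E12 replicate 1 was thus the E12 array nearest to E17. It was also the lowest at E12 over all 272 falls, at 0.01 against 0.14 to 0.17, while over the 292 rises E12 replicate 4 was the nearest to E17, at -0.35 against -0.52 to -0.41. All of these averages describe probes chosen by the same E12 and E17 values.

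**Figure D3:**
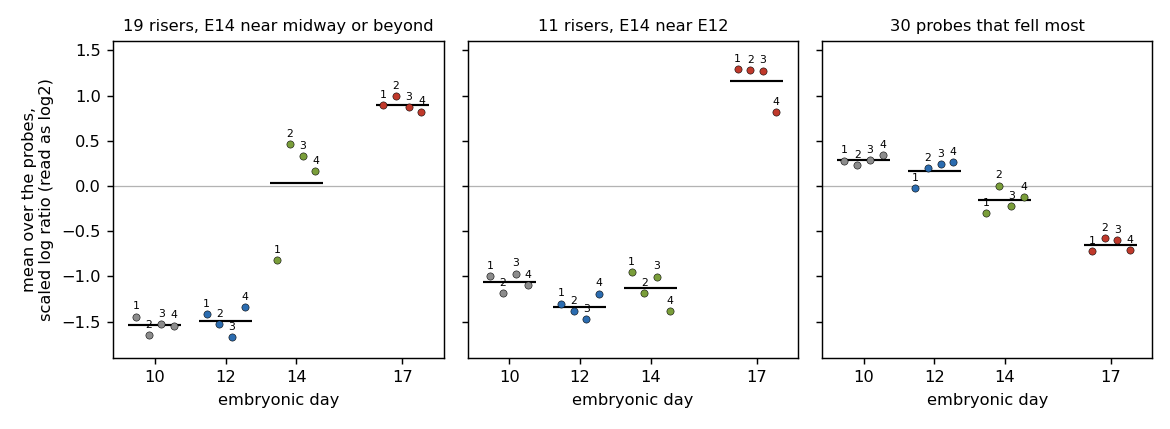
Mean over the probes of each set on every array (points, labelled with the replicate number) and per age (lines), as scaled ratios read as log2 against embryonic day. In the 19 rises E14 replicates 2 to 4 lie above 0 and replicate 1 at -0.82, in the 11 rises every E14 array lies below -0.9, and the 30 falls step down through E14.

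Whether the change was spread evenly over both steps was tested by the contrast of the later step (E17 minus E14) with the earlier step (E14 minus E12). It was positive where the later step was the higher one. The later step spans 3 days and the earlier one 2, so a constant daily change gives an E14 position of 0.4 and a contrast that is not 0. Of 7104 probes with at least 3 values at these 3 ages, 18 passed (0.253%, limma adjusted p under 0.05), 15 with a positive contrast (0.211%) and 3 with a negative one (0.0422%). The 15 positive probes differed by 0.90 to 3.83 between E17 and E12, a comparison that shares its arrays with this one. Their E14 means differed from their E12 means by -0.18 to 0.41, and 7 of the 15 were lower at E14 than at E12. Without E14 replicate 1 the test called 43 probes, 20 positive and 23 negative, and without the 4 arrays with blank spots it called 6, all positive. With each step divided by its days, a contrast chosen after seeing the data, 10 probes passed (0.141%), and 9 of them were among the 18. Of the 557 probes that changed between E12 and E17 and entered this test, 541 did not pass it, which does not show that their steps were equal.

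Probe 1621 had the largest positive contrast, 3.12 (SE 0.35, limma adjusted p = 0.000113), followed by probe 539 with 2.70 (SE 0.30, limma adjusted p = 0.000113). Per day, both passed as well (adjusted p = 0.0043 each). With trended and robust moderation the limma adjusted p was 0.0374 for probe 1621, and for probe 539 the call was lost (adjusted p = 0.0623). The contrast weights E14 most, while its standard error rests on a variance shared by all ages. The E14 SD, 0.57 for probe 1621 and 0.40 for probe 539, was the largest of any age. These standard errors and p-values may therefore be too small, and the same holds for the negative contrasts below.

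The negative contrasts belonged to probes that were highest at E14. Probe 3725 had -0.18, -0.12, 0.04 and 0.02 at E12, then 0.47, 0.50 and 0.50 on E14 replicates 2, 3 and 4, and -0.72, -0.79, -0.75 and -0.45 at E17. E14 replicate 1, at -0.17, was within the E12 range. The contrast was -1.39 (SE 0.23, limma adjusted p = 0.00668), and the fall from E12 to E17, 0.62 in size, passed its own test (SE 0.13, limma adjusted p = 0.00549). Without the arrays with blank spots its contrast was -1.13 and no longer past the threshold (adjusted p = 0.411).

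Probe 960 had a contrast of -0.85 (SE 0.17, limma adjusted p = 0.0351), with means of 0.20 ± 0.10 at E12, 0.51 ± 0.18 at E14 and -0.03 ± 0.10 at E17 (SD, n = 4). Its E17 and E12 means did not differ past the threshold (adjusted p = 0.171). Probe 6384, named after its values were seen because only 3 were negative, had a contrast of -0.85 (SE 0.17, limma adjusted p = 0.0454) and an E14 mean of 0.26 ± 0.18. Neither passed per day (adjusted p = 0.0776 for probe 960 and 0.104 for probe 6384). Of 16 fits of the contrast with 1 array left out, probe 960 passed in 6 and probe 6384 in 2.

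Each array was then placed on the line from the E12 to the E17 mean, over the probes past the threshold in a fit of those 8 arrays alone. Positions were 0.95, 1.01, 0.96 and 0.95 for E17 replicates 1 to 4, against 0.12, 0.05, -0.08 and 0.13 for E12 replicates 1 to 4, where each array was left out of the scale that placed it. These ends of the scale are a description. The E14 arrays stood at 0.29, 0.51, 0.55 and 0.46, a mean of 0.452 ± 0.116, against -0.06, -0.14, -0.08 and -0.09 at E10, a mean of -0.094 ± 0.033 (SD, n = 4). Neither of these ages had a part in the scale, and their positions did not overlap. The difference of 0.546 had a two-sided exact permutation p of 0.0286, the smallest that 4 against 4 arrays allow. The lowest E14 array was replicate 1.

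**Figure D4:**
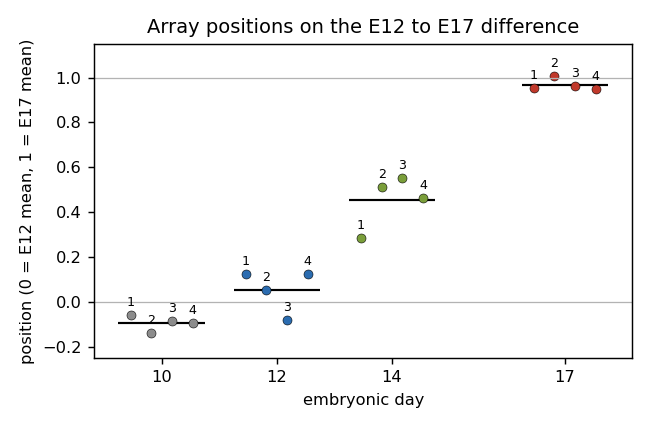
Position of each array (points, labelled with the replicate number) between the E12 mean, at 0, and the E17 mean, at 1, against embryonic day, with the mean of each age as a line. E14 arrays stand between 0.29 and 0.55 and E10 arrays lie below 0.

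Changed probes were not spread evenly over the table. Of the probes tested in rows 1 to 3600, 11.8% changed (420 of 3558), against 4.00% in the remaining rows (144 of 3597). By blocks of 600 rows the share was highest in the first, at 16.2%, and lowest in the last, at 2.67%. The same held for large rises: 49 of the 66 rises of at least 1 were in the first 3600 rows and 17 in the rest. The typical difference was larger in the first 3600 rows, with a median size of 0.141 against 0.117, and its standard error was smaller, with a median of 0.114 against 0.127. The sources used here do not say what the row order stands for, and its part in the counts was not tested.

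**Figure D5:**
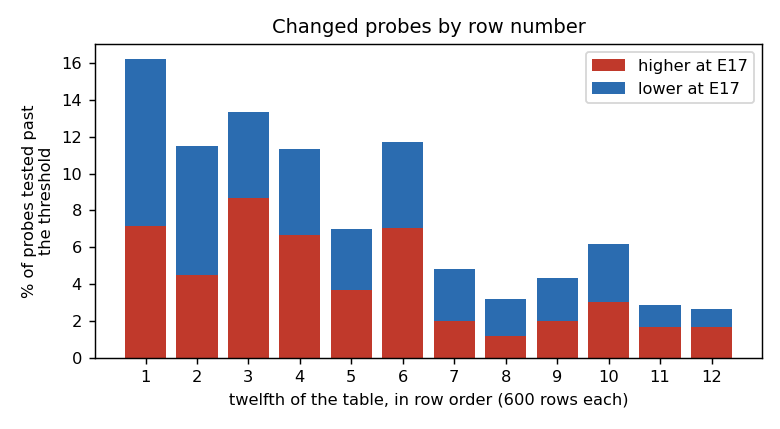
Share of tested probes past the threshold in each successive block of 600 table rows, split into probes higher and lower at E17 (stacked bars, in percent). The first 6 blocks hold 7.01 to 16.2% and the last 6 hold 2.67 to 6.18%.

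The one gene named by the annotation was STUB1, an E3 ligase that marks misfolded proteins bound to chaperones for degradation. Whether all 54 spots paired with it carry this gene could not be checked. These spots gave differences from -0.44 to 0.60 with a median of 0.00, and 1 of them (1.85%, against 7.88% of all probes) passed the threshold. That spot, probe 5578, named after its values were seen, had -0.24, -0.38, -0.16 and -0.35 at E17, against 0.11, 0.02, 0.35 and 0.15 at E12, a difference of -0.44 (SE 0.09, limma adjusted p = 0.00445). Without the arrays with blank spots its difference was -0.34 and the call was lost (adjusted p = 0.114). The SD of the differences over the 54 spots was 0.207, against 0.294 over all probes, and no single value is given for the gene. Since the share of changed probes varied along the table, and the 54 spots were not compared with probes of nearby rows, their lower share is not interpreted.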

How the data were processed

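The authors deposited 1 table of log ratios between sample (Cy3) and reference pool (Cy5), 1 value per spot and array, read here as log2 of sample over pool. Dyes, pools and amplification are per the labels' protocols. Image analysis, background correction, normalization, spot filters, the log base and the direction were not given in the sources used here. Array values had means of -0.0065 to 0.0025 and SDs of 0.2612 to 0.2614, so each had been centred and scaled. Since all 16 samples gave the same amount to the pool, a probe's linear ratio should average about 1 before any scaling. For the 30 probes that rose most it averaged a median of 0.927 read as log2 of sample over pool, 1.07 as natural logarithms, 3.06 as base 10 and 1.78 with the log2 sign turned. Centring and scaling can move these averages, so they are a guide only. Sample over pool, the order in the titles, and base 2 are assumptions, and natural logarithms are not separated from base 2. With the sign turned, every rise would be a fall of the same size and the reverse. Negative correlations between arrays of different ages were left with their direction, since ages can oppose each other around such a pool.

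Limma 3.58.1 in R 4.3.3 (lmFit, eBayes) was fitted with a mean per age over all 16 arrays, with Benjamini-Hochberg adjustment over the probes tested and a threshold of 0.05. On simulated data, the fit of E17 against E12 recovered 65 of 100 planted changes of 0.5 and 97 of 100 changes of 1. The step contrast recovered only 12 and 69 of 100. False calls were 13 of 175 for E17 against E12 and 7 of 88 for the steps. The simulated noise was independent between probes and arrays, with no effect shared over an array. These counts are therefore not error rates for the real arrays. Labels do not say that replicates came from separate flocks or days. The p-values therefore measure the spread between pools of the same age, with a variance shared by all ages. The number of embryos per pool changed with age, so the 2 cannot be told apart. Named probes were the 2 with the largest rises and the 2 with the largest falls among those past the threshold and without overlap, and the 2 largest contrasts of each sign for the steps. Probes, groupings and alternatives were chosen with earlier results of these data known. Alternatives covered the arrays used, row filters, quantile normalization, median centring, array weights, moderation, a replicate block, the arrays with blank spots, odd or even numbers and each array left out.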

Additional observations from a re-analysis of the deposited data

Results flagged for a closer look

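Of 63 groups of 4 arrays looked at, 3 had 1 array far from the other 3. If the groups were independent, chance would flag about 1 in 20, or 3.15 of the 63. These groups share arrays and probes, so that rate is a guide only. On E17 replicate 4, probe 539 had 1.04, while the remaining E17 arrays had 1.44 to 1.51. The 11 large rises with E14 near the E12 level, which include probe 539, averaged 0.81 there, against 1.28 to 1.30. Probe 3725 was at -0.17 on E14 replicate 1, against 0.47 to 0.50 on the other E14 arrays.

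The later and the earlier step differed by test for 18 probes. The contrast was 3.12 for probe 1621, 2.70 for probe 539, -1.39 for probe 3725 and -0.85 for probe 960.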

How the results depend on the processing

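The odd or even term and the contrast per day were chosen after seeing the data. The other settings were planned before these fits, but with earlier results of these data known. For E17 against E12 (564 probes), leaving out the arrays with blank spots gave 300, with 2 E12 arrays left. The other 11 alternatives stayed within 1.5 times the count, and leaving out 1 array gave 400 (E17 replicate 4) to 629. No setting turned the sign of any of the 564, but many settings left the differences unchanged and the rest reused the same values. Of the 564, 247 passed in every setting. The split moved most without the blank-spot arrays (70.3% higher, against 51.8%). The replicate numbers were not taken as pairs in the main fit. Deviations of same-numbered E17 and E12 arrays correlated at -0.01 to 0.30, against -0.27 to 0.19 for arrays of different numbers. Of the 4 E17 arrays, 3 correlated best with their own number, and whether same-numbered arrays share part of their spread was not tested. With the replicate block 685 probes passed for E17 against E12, and 18 for the steps, where probe 960 was lost (adjusted p = 0.0532).

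For the later step against the earlier (18 probes), trended and robust moderation and the contrast per day each gave 10, leaving out the blank-spot arrays gave 6, and leaving out 1 array gave 13 to 43, the highest without E14 replicate 1. Of the 18, 5 passed in every setting of the undivided contrast. For the positions, E14 minus E10 was 0.445 without the blank-spot arrays (exact permutation p = 0.0667, the smallest that 2 against 4 allow) and 0.488 to 0.673 under the other alternatives, each at the smallest p. Values are ratios only, so signal over background could not be read.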
